A study of Bos taurus with 3 samples.

Results

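Oxidative phosphorylation genes encode the respiratory chain and the ATP synthase of the inner mitochondrial membrane. They were taken as the genes with a single platform symbol that starts with NDUF, UQCR, ATP5 or COX followed by a number, or is SDHA, SDHB, SDHC, SDHD, CYC1 or CYCS. This gave 91 genes, read by 119 probe sets, of 9155 genes with a named probe set on the Affymetrix GeneChip Bovine Genome Array. Where a gene had several probe sets, the brightest by mean over the 3 arrays stood for it. RNA came from 2 isolates of Gonadal Ridge Epithelial-Like (GREL) cells, polygonal cells cultured from fetal bovine ovaries that the labels place at 130 days of gestation, and from 1 culture of fibroblastic cells of the ovarian medullar stroma of an adult cow. The study places 1 of the isolates a few days earlier in gestation and describes both as clonally enriched. The design text of the series instead has the adult fibroblasts cultured from digested fetal ovaries. The labels and the study give an adult origin, which was followed here. All cultures grew in the same serum-containing medium, without treatment, but the fetal and adult tissues were dispersed at different collagenase concentrations. Fetal against adult, epithelial-like against fibroblastic and the dispersal therefore cannot be told apart.

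In the respiratory chain, complex I takes electrons from NADH and complex II from succinate, ubiquinone carries them to complex III, cytochrome c carries them on to complex IV, and complex IV passes them to oxygen. Complexes I, III and IV pump protons, and complex V, the ATP synthase, lets the protons return to make ATP. In ovarian steroid-producing cells the mitochondrion is also where cholesterol is converted to pregnenolone. The array values are for nuclear genes, and the mitochondrially encoded COX1, COX2 and COX3 were not analysed here. Of 109 protein-coding genes in the current bovine gene table that the same symbols take in, 91 were measured. Those not analysed here included CYCS, which encodes cytochrome c, and the complex IV subunits COX6B1 and COX7B.

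Values are log2 intensities rounded to steps of 0.1, and every difference is a GREL value minus the fibroblast value on that scale. The array medians over 24016 probe sets were 3.0 and 2.9 in the isolates and 2.9 in the fibroblasts. As a background level, the 90th percentile of 41 measured genes of other organs was 6.2 in isolate 1, 6.8 in isolate 2 and 6.2 in the fibroblasts. This cutoff is strict. The list's median was 2.0, 2.1 and 2.1 on the same arrays, and some listed genes are bright, such as POMC at 11.6, 11.6 and 11.7. Over all 9155 genes, 2330, 1749 and 2201 exceeded the cutoff. A gene below background may therefore still be expressed. The paper lists KRT7 and LSR, both below background here, as up-regulated in GREL cells. The cutoff was exceeded on all 3 arrays by 71 of the 91 genes, on none of them by 14, and on 1 or 2 arrays by 6. Epithelial markers summed to linear intensities of 5430 and 6840 in the isolates and 1530 in the fibroblasts, and 7 of 8 were higher in both isolates, with KRT19 at 11.3 and 11.6 against 7.1, although KRT7, KRT8, LSR, CDH1 and EPCAM lay below background on every array, so that KRT18 and KRT19 carry the sums. Stromal markers summed to 7460 and 4210 in the isolates and 11800 in the fibroblasts, with 9 of 10 lower in both isolates, but COL1A2 was still at 11.5 and 10.5 in the isolates against 12 in the fibroblasts. The 5 endothelial and 5 blood markers lay below background on all arrays. The 4 measured markers of dividing cells summed to 697 and 1190 in the isolates and 156 in the fibroblasts, each being over 3-fold higher in both isolates. In bulk RNA, fewer cells of a type and less RNA per cell cannot be told apart, and the part of cell division or cell type in the values below was not tested.

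Most oxidative phosphorylation genes were slightly higher in GREL cells. Of the 91 genes, 61 (67.0%) were higher than in the fibroblasts in both isolates, against 41.6% of all genes, and 11 (12.1%) were lower in both, against 33.5% of all genes. The other 19 were level with the fibroblasts in an isolate or lay on opposite sides. The median log2 difference was 0.35, or 1.27-fold, with 0.30 in isolate 1 and 0.40 in isolate 2, and the median over all genes was 0.05. Bright genes as a whole leaned the same way. Among the 1517 genes whose mean level was at least the lower quartile of the oxidative phosphorylation genes (6.93), 51.5% were higher in both isolates and 26.4% lower, with a median difference of 0.20. The 68 oxidative phosphorylation genes at that level had 46 higher, 6 lower and a median of 0.325. When the arrays were centred on the median of those 1517 genes, a scaling chosen after seeing the data, 48 of the 91 were higher and 20 lower in both isolates, against 28.7% and 49.2% of all genes, and the median was 0.15, against -0.15 over all genes.

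The differences were small. More than 1.5-fold in both isolates separated 16 of the 91 genes upward and 3 downward, against 16.3% and 11.0% of all genes, so the upward share (17.6%) was near that background, and below the 21.6% of genes of like level, and the downward share (3.3%) was below it. At 2-fold 1 gene was higher (NDUFA5, against 5.8% of all genes) and 1 lower (NDUFA4L2, against 4.78%), and at 3-fold none was, where 2.38% of all genes were higher and 2.38% lower. The quartiles of the 91 differences ran from 0.15 to 0.60, against -0.30 to 0.45 over all genes. The gap between the isolates had a median of 0.20 and reached 0.90, and in 64 of the 91 genes (70.3%) the mean difference was larger than that gap, a share near that of genes of like level (69.4%) and of all genes (64.5%). In limma, fitted over 24016 probe sets, 0 of the 91 genes and 0.0% of all probe sets passed an adjusted p under 0.05, and the adjusted p of the 91 ran from 0.182 to 1.0. At an unadjusted p under 0.05, 19 were higher and 2 lower, where 9.8% of probe sets were higher and 11.1% lower. The one way ANOVA of the methods, on the 76 genes whose isolates differ, gave 0 at the adjusted level (0.0% of all such probe sets) and 0 higher and 1 lower unadjusted, where 0.907% and 1.01% of probe sets were. The shares over all probe sets include many dim ones, so they are not like-for-like with these mostly bright genes, and no excess is read from them. The single fibroblast culture gives no spread of its own, and an exact two-sided permutation test of 2 arrays against 1 cannot go below p = 0.333.

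**Figure D1:**
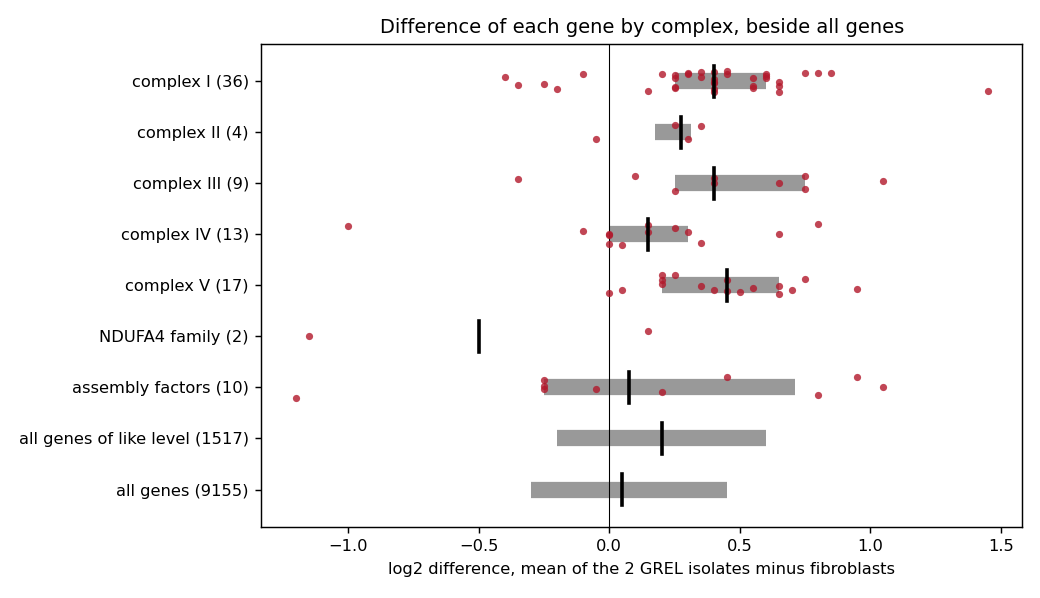
Each point is an oxidative phosphorylation gene, placed on the horizontal axis by its log2 difference, mean of 2 GREL isolates minus fibroblasts, and grouped by complex (gene numbers in brackets). Black bars are medians and grey bars run from quartile to quartile (not drawn for the 2 genes of the NDUFA4 family); the medians of complexes I, III and V lie close together (0.40, 0.40 and 0.45), and that of complex IV is 0.15, beside 0.20 for all genes of like level.

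Complex I, the NADH dehydrogenase, had 36 measured subunits, of which 28 (77.8%) were higher in both isolates and 4 (11.1%) lower in both. Over all genes the shares were 41.6% and 33.5%. The median difference of complex I was 0.40. NDUFA5, an accessory subunit of the matrix arm, had log2 values of 8.5 and 9.0 in GREL isolates 1 and 2, against 7.3 in the fibroblasts. Both isolates lay clear of the fibroblasts, at 2.30-fold and 3.25-fold, and the mean difference of 1.45 (SE 0.35, limma adjusted p = 0.286) was the highest of the 91 genes and ranked 366 among all 9155. A second probe set of NDUFA5 gave 6.4 and 6.7 in the isolates and 5.5 in the fibroblasts. The remaining probe set, at 1.9 and 2.9 in the isolates and 2.1 in the fibroblasts, lay below background throughout.

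NDUFV1, the core subunit that binds NADH and the flavin, was at 6.5 and 7.2 in the isolates and 6.0 in the fibroblasts. NDUFA10, an accessory subunit of the membrane arm, was at 6.7 and 7.3 in the isolates and 6.2 in the fibroblasts, and NDUFS6, a zinc-binding accessory subunit, at 7.1 and 7.6 in the isolates and 6.6 in the fibroblasts. In these genes isolate 2 stood well above isolate 1, so the gap between the isolates (0.70, 0.60 and 0.50) was large beside the mean difference (0.85, 0.80 and 0.75). NDUFA9, an accessory subunit, showed the same, at 6.4 and 7.0 in the isolates and 6.1 in the fibroblasts. NDUFAB1, the mitochondrial acyl carrier protein, was tighter, at 7.8 and 7.9 in the isolates and 7.2 in the fibroblasts, 0.65 apart in the mean (SE 0.07, limma adjusted p = 0.20). So was NDUFC1, an accessory subunit, at 8.4 and 8.3 in the isolates and 7.7 in the fibroblasts. With NDUFA5 these were the 3 complex I genes over 1.5-fold higher in both isolates.

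The 6 measured core subunits, those also found in the bacterial enzyme, were NDUFV1, NDUFV2, NDUFS1, NDUFS3, NDUFS7 and NDUFS8. Of these 5 (83.3%, against 41.6% of all genes) were higher in both isolates, with a median difference of 0.45. NDUFS7 lay on both sides, at 6.9 and 7.4 in the isolates and 7.0 in the fibroblasts. The median over the 30 other subunits was 0.40. The 4 subunits lower in both isolates were all accessory. NDUFA3 was at 7.5 in both isolates and 7.9 in the fibroblasts, and NDUFS5 at 8.0 and 8.1 in the isolates and 8.4 in the fibroblasts. NDUFA7 was at 7.6 and 7.7 in the isolates and 7.9 in the fibroblasts, and NDUFB3 at 7.8 and 8.0 in the isolates and 8.1 in the fibroblasts. Their mean differences ran from -0.40 to -0.20, all under 1.5-fold.

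**Figure D2:**
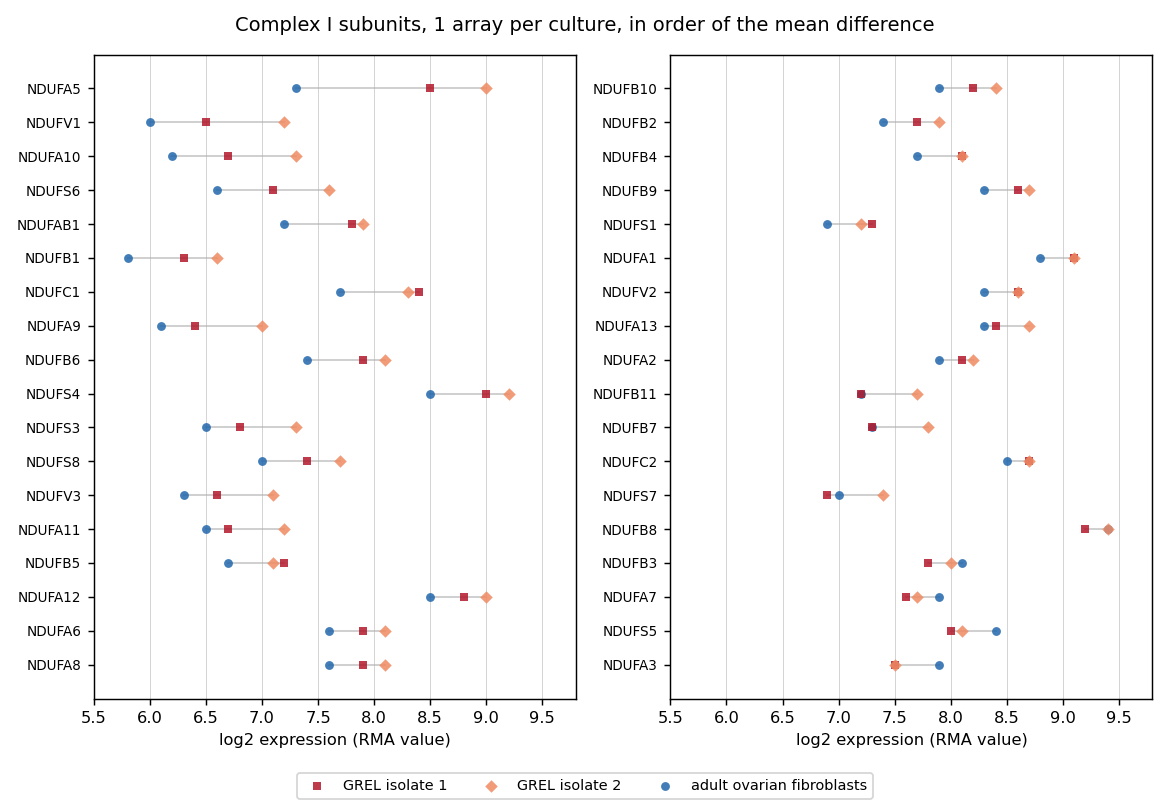
The 36 complex I subunits (rows) with their log2 RMA value on the horizontal axis, 1 array for each culture, in GREL isolate 1 (squares), GREL isolate 2 (diamonds) and adult ovarian fibroblasts (circles), ordered by the mean difference from the top left to the bottom right. In 28 rows both isolates lie to the right of the fibroblasts, farthest in NDUFA5 (8.5 and 9.0 against 7.3), and in 4 rows both lie to the left.

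Complex II, succinate dehydrogenase, also belongs to the citric acid cycle. SDHA, the flavoprotein, was at 7.8 and 8.1 in the isolates and 7.6 in the fibroblasts, and SDHB, the iron-sulfur subunit, at 7.7 and 8.0 in the isolates and 7.9 in the fibroblasts. The membrane anchors were SDHC, at 8.1 and 8.2 in the isolates and 7.9 in the fibroblasts, and SDHD, at 7.2 in both isolates and 6.9 in the fibroblasts. Thus 3 of 4 were higher in both isolates, by at most 0.35 in the mean, and SDHB lay on both sides of the fibroblasts.

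Complex III, the cytochrome bc1 complex, had 9 measured subunits, with 7 (77.8%) higher in both isolates and 1 (11.1%) lower in both. Over all genes the shares were 41.6% and 33.5%. The median difference of complex III was 0.40. UQCRQ, a small subunit near the ubiquinone site, was at 5.9 and 6.8 in the isolates and 5.3 in the fibroblasts, below or at the background level throughout. Its isolates were 0.90 apart, the widest gap of the 91 genes, beside a mean difference of 1.05 (SE 0.63, limma adjusted p = 0.459). UQCRB, another small subunit, was at 7.9 and 7.8 in the isolates and 7.1 in the fibroblasts, 0.75 apart in the mean (SE 0.07, limma adjusted p = 0.195). Its second, dim probe set ran the other way, at 2.8 and 2.6 in the isolates and 3.1 in the fibroblasts. The subunits that carry the electrons were CYC1 (cytochrome c1), at 8.0 and 8.3 in the isolates and 7.4 in the fibroblasts, and UQCRFS1 (the Rieske iron-sulfur protein), at 8.4 and 8.7 in the isolates and 7.9 in the fibroblasts. The core proteins of the matrix side were UQCRC1, at 7.8 and 8.2 in the isolates and 7.6 in the fibroblasts, and UQCRC2, at 7.8 in both isolates and 7.4 in the fibroblasts. The small subunits UQCR11 (9.0 and 9.3 in the isolates, 8.9 in the fibroblasts) and UQCR10 (8.2 and 8.6 in the isolates, 8.3 in the fibroblasts) differed least. UQCRH, the hinge protein beside cytochrome c1, was the only one of the 9 lower in both isolates, at 8.9 and 9.0 in the isolates and 9.3 in the fibroblasts.

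Complex IV, cytochrome c oxidase, had small differences. Of 13 measured subunits 5 (38.5%) were higher in both isolates, 2 (15.4%) lower in both and 6 neither, against 41.6% higher and 33.5% lower over all genes. The median of 0.15 was below that of all genes of like level (0.20), and it was -0.05 when the arrays were centred on those genes. COX5B at 8.2 and COX6C at 9.1 had the same value on all 3 arrays. COX6A1, the widely expressed form of subunit VIa, was at 9.6 in both isolates and 9.7 in the fibroblasts, and COX4I1, of subunit IV, at 9.4 and 9.7 in the isolates and 9.4 in the fibroblasts. COX5A, a structural subunit, differed from these, at 9.1 and 9.2 in the isolates and 8.5 in the fibroblasts, 0.65 apart in the mean (SE 0.07, limma adjusted p = 0.20). COX7C, another small subunit, was at 9.5 and 9.4 in the isolates and 9.1 in the fibroblasts.

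Some complex IV subunits come as tissue forms. COX7A1, the form of subunit VIIa known from heart and skeletal muscle, was at 5.6 and 5.0 in the isolates, below background, and at 6.3 in the fibroblasts, just above it. Both isolates were lower, at 0.616-fold and 0.406-fold, with a mean difference of -1.0 (SE 0.42, limma adjusted p = 0.388). Its widely expressed partner COX7A2 was at 9.7 and 9.8 in the isolates and 9.5 in the fibroblasts. COX7A2L, a related protein that joins complexes III and IV in supercomplexes, was at 8.4 and 7.9 in the isolates and 8.1 in the fibroblasts, so the isolates lay on opposite sides. Of 5 smooth muscle markers, which summed to 3200 and 3190 in the isolates and 3710 in the fibroblasts, 2 were lower in both isolates. Among them DES was at 8.3 and 8.1 in the isolates and 9.5 in the fibroblasts, whereas ACTA2 was at 10.4 and 10.7 in the isolates and 10.5 in the fibroblasts, and the part of contractile cells in the COX7A1 value was not tested. COX6A2, the muscle form of subunit VIa, was at 1.9 on all arrays. COX6B2, a form known from testis, was at 4.1 in both isolates and 3.3 in the fibroblasts, all below background. COX8A, the widely expressed form of subunit VIII, was at 8.5 and 9.2 in the isolates and 8.7 in the fibroblasts. COX8B, its muscle form, had probe sets that disagreed in level, the brighter at 7.3 and 7.7 in the isolates and 7.2 in the fibroblasts and the dimmer at 2.2 in both isolates and 2.4 in the fibroblasts, so its level is uncertain.

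Complex V, the ATP synthase, had 12 of 17 genes (70.6%) higher in both isolates, 5 neither and 0 (0.0%) lower in both. Over all genes 41.6% were higher and 33.5% lower. The median difference of complex V was 0.45, or 0.30 in isolate 1 and 0.50 in isolate 2, where complex III had 0.40 and 0.60. The catalytic head was led by ATP5F1B, the beta subunit that holds the catalytic sites, at 9.4 and 9.9 in the isolates and 8.7 in the fibroblasts, 0.95 apart in the mean (SE 0.35, limma adjusted p = 0.341). ATP5F1A, the alpha subunit, was at 10.5 and 10.6 in the isolates and 9.9 in the fibroblasts, and ATP5F1C, the gamma subunit of the rotating stalk, at 9.3 and 9.2 in the isolates and 8.6 in the fibroblasts. These 3 were over 1.5-fold higher in both isolates. The smaller stalk subunits ATP5F1D and ATP5F1E had mean differences of 0.20 and 0.25.

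Of the stator, ATP5PF (coupling factor 6) was at 9.7 in both isolates and 9.0 in the fibroblasts, whereas ATP5PD (subunit d) was at 9.0 and 9.1 in the isolates and 9.0 in the fibroblasts. Subunit c, which forms the rotating membrane ring, is encoded by several genes with the same mature protein, and their differences were unequal. ATP5MC3 was at 10.5 and 10.6 in the isolates and 9.8 in the fibroblasts, 0.75 apart in the mean (SE 0.07, limma adjusted p = 0.195). ATP5MC2 was at 9.3 on all arrays, and ATP5MC1 at 5.2 and 5.6 in the isolates and 4.9 in the fibroblasts, below background. ATP5IF1, which inhibits the enzyme when it runs in reverse, was at 9.9 and 10 in the isolates and 9.5 in the fibroblasts. ATP5MG, a membrane subunit, was at 8.5 and 8.7 in the isolates and 8.2 in the fibroblasts at its brighter probe set, but at 6.6 in both isolates and 6.8 in the fibroblasts at its other one. The membrane subunits ATP5MF (8.4 and 8.8 in the isolates, 8.4 in the fibroblasts) and ATP5MJ (7.9 and 8.3 in the isolates, 7.9 in the fibroblasts) were level with the fibroblasts in isolate 1 and higher in isolate 2.

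**Figure D3:**
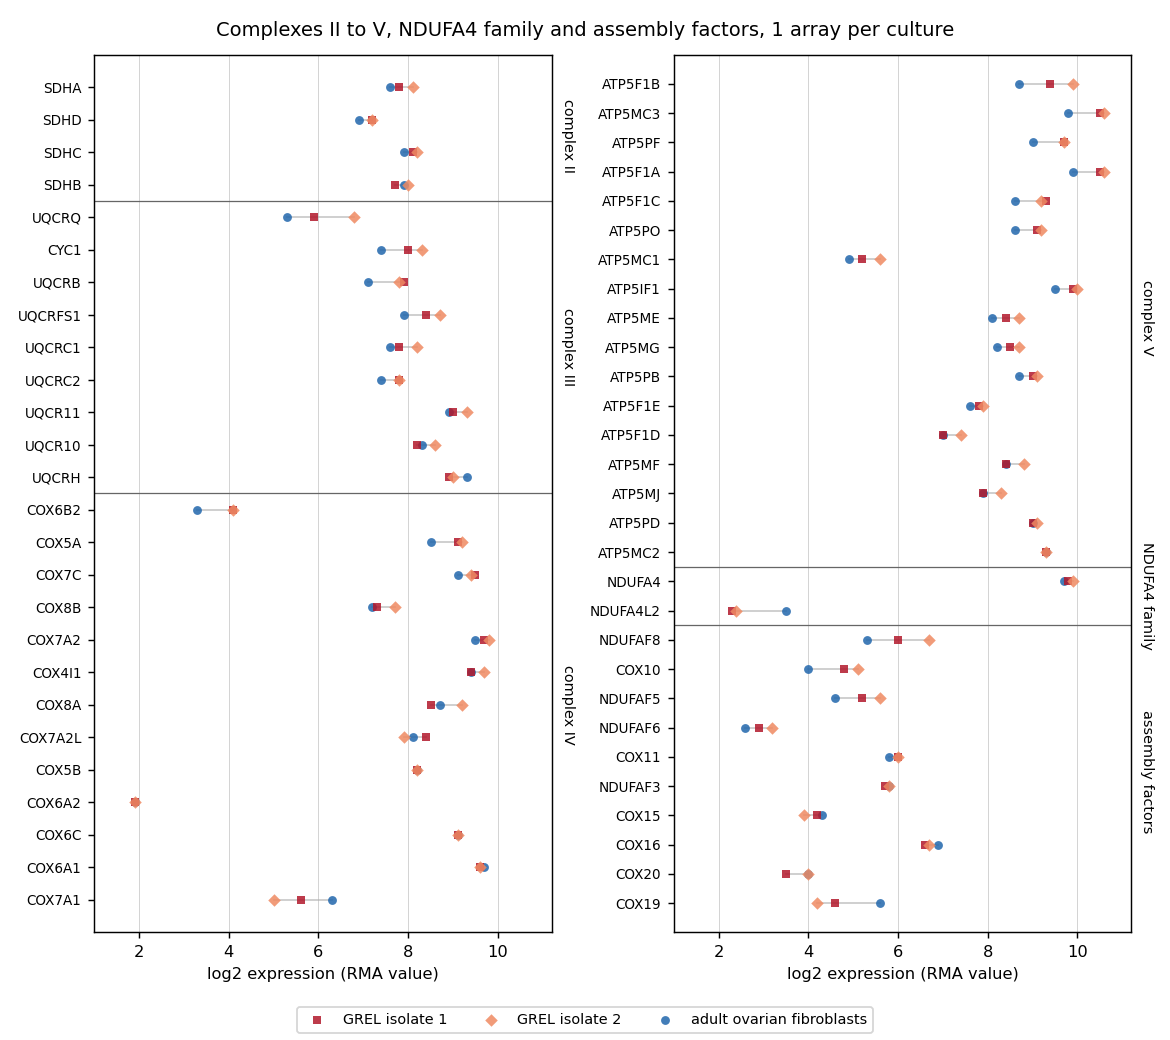
The other 55 genes (rows) with their log2 RMA value on the horizontal axis, 1 array for each culture, in GREL isolate 1 (squares), GREL isolate 2 (diamonds) and adult ovarian fibroblasts (circles), by complex and, within it, by the mean difference. ATP5F1B (9.4 and 9.9 against 8.7) lies to the right of the fibroblasts in both isolates, and COX7A1 (5.6 and 5.0 against 6.3), NDUFA4L2 and COX19 lie to the left.

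NDUFA4, first assigned to complex I and now known as a subunit of complex IV, was at 9.8 and 9.9 in the isolates and 9.7 in the fibroblasts. NDUFA4L2, a relative known in human cells as a target of the hypoxia factor HIF1A, was at 2.3 and 2.4 in the isolates and 3.5 in the fibroblasts. Both isolates were lower, at 0.435-fold and 0.467-fold (mean difference -1.15, SE 0.07, limma adjusted p = 0.182), but every value lay below background and a second probe set was at 2.2 in both isolates and 2.3 in the fibroblasts. The RNA of HIF1A itself was at 8.8 and 8.4 in the isolates and 10.1 in the fibroblasts, and its part in the NDUFA4L2 value was not tested.

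Of the 10 assembly factors that the symbols take in, 5 (50.0%) were higher in both isolates and 3 (30.0%) lower in both. These shares are near the 41.6% and 33.5% of all genes. The median difference of 0.075 was below 0 under the like-level centring (-0.125) and on a second quantile normalisation (-0.025). On all arrays 9 of the 10 lay at or below background, COX16 being the other. NDUFAF8, a complex I assembly factor that acts with NDUFAF5, was at 6.0 and 6.7 in the isolates and 5.3 in the fibroblasts, 1.05 apart in the mean (SE 0.49, limma adjusted p = 0.392). NDUFAF5, which hydroxylates NDUFS7, was at 5.2 and 5.6 in the isolates and 4.6 in the fibroblasts, and its second probe set at 3.7 and 4.2 in the isolates and 2.3 in the fibroblasts. NDUFAF6, another complex I assembly factor, was at 2.9 and 3.2 in the isolates and 2.6 in the fibroblasts, and NDUFAF3 at 5.7 and 5.8 in the isolates and 5.8 in the fibroblasts. For complex IV, COX10, which makes heme O on the way to heme A, was at 4.8 and 5.1 in the isolates and 4.0 in the fibroblasts, while COX15, which completes heme A, was at 4.2 and 3.9 in the isolates and 4.3 in the fibroblasts. COX11, which delivers copper, was at 6.0 in both isolates and 5.8 in the fibroblasts. COX19, a small protein also needed for copper delivery, was at 4.6 and 4.2 in the isolates and 5.6 in the fibroblasts, with a mean difference of -1.20 (SE 0.28, limma adjusted p = 0.282) and the lowest of the 91. At its other probe sets the isolates had 4.8 and 4.1 beside 4.2 in the fibroblasts, and 4.0 and 4.4 beside 4.6 in the fibroblasts, so both isolates were lower at 2 of its 3 probe sets and on opposite sides at the other, all dim. COX16 and COX20, both assembly factors, had mean differences of -0.25 each.

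The isolates themselves differed in these genes. Isolate 2 was higher than isolate 1 in 66 of the 91 genes (72.5%), equal in 15 and lower in 10, against 51.4% higher over all genes and 48.1% over genes of like level. Taken without its sign, the gap had a median of 0.2 for the 91 genes, for all genes and for genes of like level. It was 0.1 for the 68 of the 91 at that level. As isolate 2 minus isolate 1, the median gap was 0.2 for the 91 genes and 0.1 for the 68. It was 0.1 for all genes and 0.0 for genes of like level. The gap was over 1.5-fold in 7 genes (UQCRQ, NDUFV1, COX8A, NDUFAF8, NDUFA10, NDUFA9 and, with isolate 2 lower, COX7A1). The share of all genes with such a gap is not given here, so that count is only a description. Dividing cell markers were also brighter in isolate 2 (PCNA 8.3 and 9.0 in isolates 1 and 2) and stromal markers dimmer (LUM 7.1 and 5.8), and their part in this gap was not tested. In complex IV isolate 2 was higher in 5 of 13 genes, and in complex I in 28 of 36; the difference between complexes was not tested. Both isolates were set against the same fibroblast array, so their differences share its error.

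Of the 91 genes 67 had 1 probe set and 24 had several, with 28 further probe sets, 25 of which lay below background on all arrays. In 6 of the 28 both isolates lay on the other side of the fibroblasts from the gene's brightest probe set, in UQCRB, COX8B and ATP5MG as given above and in 3 others that were dim. NDUFS1, the iron-sulfur core subunit of complex I, was at 7.3 and 7.2 in the isolates and 6.9 in the fibroblasts at its brightest probe set, and at 0.8 in both isolates and 1.0 in the fibroblasts at the opposing one. NDUFA11, an accessory subunit of complex I, was at 6.7 and 7.2 in the isolates and 6.5 in the fibroblasts, against 2.0 and 1.8 in the isolates and 2.1 in the fibroblasts at its other probe set. The second probe set of NDUFA4 was at 0.8 in both isolates and 1.1 in the fibroblasts.

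**Figure D4:**
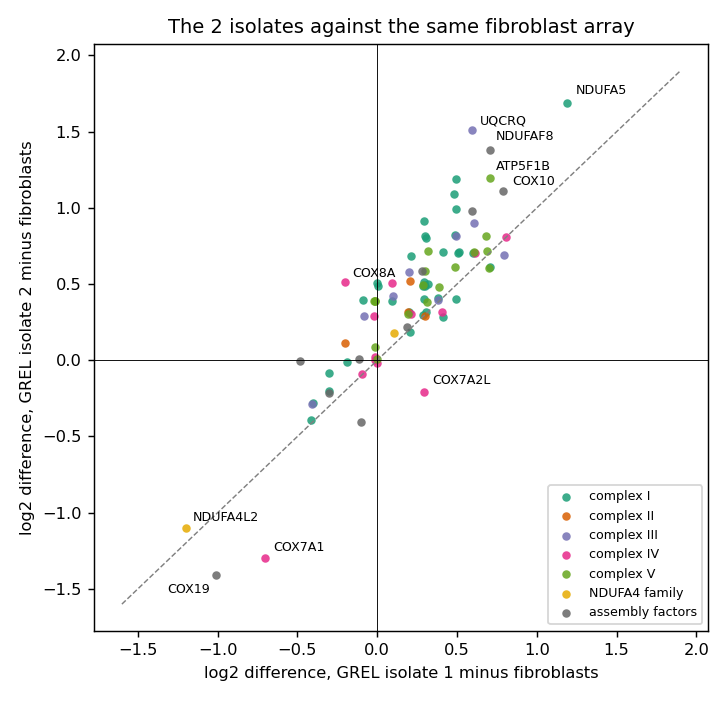
Log2 difference from the fibroblasts in GREL isolate 1 (horizontal axis) and isolate 2 (vertical axis) for each of the 91 genes, coloured by complex, with points spread by up to 0.02 so that ties show and a dashed line where the isolates are equal. Of the 91 points 66 lie above the line, with NDUFA5 at 1.20 and 1.70 and COX19 at -1.0 and -1.4 near the ends.

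Other genes of the mitochondrion, from lists made up by function, were set beside these values. None of them passed limma, since it called 0 of all probe sets. Of 67 genes of the mitochondrial ribosome, which translates the mitochondrially encoded subunits, 58 (86.6%) were higher in both isolates and 4 (5.97%) lower. Over all genes the shares were 41.6% and 33.5%. The median difference of the 67 was 0.65, and 37 were over 1.5-fold higher, against 16.3% of all genes. Of the 67, 40 lay above background in isolate 1, 28 in isolate 2 and 26 in the fibroblasts. MRPL15 was at 5.6 and 5.7 in the isolates and 3.7 in the fibroblasts, and MRPL48 at 5.9 and 6.2 in the isolates and 4.3 in the fibroblasts. Both lay below background on all arrays. MRPL45 was among the exceptions, at 7.0 in both isolates and 7.6 in the fibroblasts, as was MRPL10, at 6.4 and 6.3 in the isolates and 6.8 in the fibroblasts. Of 25 genes of mitochondrial import 21 (84.0%) were higher in both isolates and 2 (8.0%) lower, with a median of 0.60. TIMM13, a carrier of inner membrane proteins, was at 7.0 and 7.6 in the isolates and 5.8 in the fibroblasts, and CHCHD4, which folds proteins of the intermembrane space, at 6.2 and 6.5 in the isolates and 4.9 in the fibroblasts. TIMM17B, of the inner membrane channel, was at 5.7 and 6.0 in the isolates and 6.2 in the fibroblasts. CHCHD4 and TIMM17B lay at or below background on all arrays. Of the 25 import genes, 14 lay above background in isolate 1, 13 in isolate 2 and 11 in the fibroblasts.

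Of 23 genes of mitochondrial DNA expression 19 (82.6%) were higher in both isolates and 2 (8.7%) lower, against 41.6% and 33.5% of all genes. Their median was 0.55. Most of these values were dim, since only 3 of the 23 genes lay above background in isolate 1, 2 in isolate 2 and 2 in the fibroblasts. TFB2M, a mitochondrial transcription factor, was at 6.9 and 6.7 in the isolates and 5.5 in the fibroblasts, above background only in isolate 1. TWNK, the DNA helicase, was at 1.7 and 1.5 in the isolates and 1.8 in the fibroblasts, all below background. Of 22 genes of pyruvate dehydrogenase and the citric acid cycle 16 (72.7%) were higher and 3 (13.6%) lower, with a median of 0.55. Above background lay 14 of the 22 in isolate 1, 11 in isolate 2 and 11 in the fibroblasts. IDH2, the mitochondrial NADP-dependent isocitrate dehydrogenase, was at 7.1 and 7.2 in the isolates and 5.5 in the fibroblasts, and MPC1, of the pyruvate carrier, at 8.1 and 7.2 in the isolates and 6.4 in the fibroblasts. The kinases that inhibit pyruvate dehydrogenase ran the other way in part, with PDK3 at 5.4 in both isolates and 6.3 in the fibroblasts, PDK2 at 4.1 and 4.0 in the isolates and 4.9 in the fibroblasts, and PDK4 at 2.7 and 2.6 in the isolates and 2.2 in the fibroblasts. PDK2 and PDK4 lay below background on all arrays, and PDK3 did so in both isolates.

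Carriers and porins gave 7 of 15 higher (46.7%) and 2 lower (13.3%, SLC25A1 and UCP3), against 41.6% and 33.5% of all genes. The median of the carriers and porins, 0.45, was 0.1 in isolate 1 alone and 0.067 with the mean over each gene's probe sets. SLC25A5, an ADP/ATP carrier, was at 8.9 and 9.3 in the isolates and 8.0 in the fibroblasts, whereas its relative SLC25A6 was at 9.8 and 9.9 in the isolates and 9.9 in the fibroblasts. Of 15 genes of fission, fusion and cristae 9 (60.0%) were higher and 1 (6.67%), FIS1, was lower (median 0.45). FIS1, a fission adaptor, was at 6.3 and 5.8 in the isolates and 7.3 in the fibroblasts. PHB1, a prohibitin of the inner membrane, was at 8.3 and 8.5 in the isolates and 7.3 in the fibroblasts. Of 24 assembly factors with other symbols 12 were higher and 6 lower (median 0.15, but 0.0 in isolate 1 alone and 0.35 in isolate 2 alone). ACAD9, for complex I, was at 4.2 and 4.6 in the isolates and 2.3 in the fibroblasts, below background on all arrays. TMEM126A, also for complex I, was at 8.2 and 8.6 in the isolates and 7.0 in the fibroblasts. The 13 measured regulators of mitochondrial biogenesis had 5 higher and 5 lower in both isolates (38.5% each, near the shares of all genes) and a median of 0.00. PPARGC1A, the main coactivator, was at 1.5 and 1.7 in the isolates and 2.8 in the fibroblasts, below background on all arrays, and SIRT1, a deacetylase that acts on it, at 6.5 and 6.3 in the isolates and 5.2 in the fibroblasts.

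**Figure D5:**
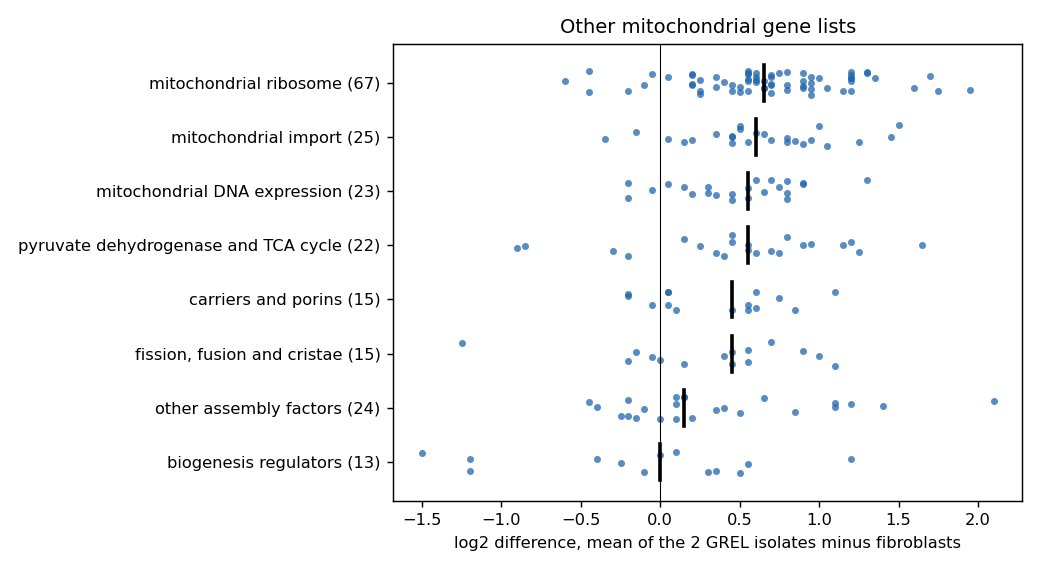
Points are the measured genes of 8 other mitochondrial lists (gene numbers in brackets), placed on the horizontal axis by their log2 difference, mean of 2 GREL isolates minus fibroblasts, with each list's median as a black bar. The median is 0.65 for the mitochondrial ribosome and 0.00 for the biogenesis regulators.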

How the data were processed

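RNA of 3 cultures was hybridised to 1 array each. The authors subtracted background with RMA, quantile normalised the arrays and deposited log2 values (Partek 6.5 in the submitters' processing notes), rounded to steps of 0.1, without detection calls. The table held 24128 probe sets, and the 112 that are array controls were not used, leaving 24016. A single platform symbol was held by 13292 probe sets, several by 86 and none here by 10638. The gene identifiers of all 91 genes are in the current bovine gene table (ARS-UCD2.0), with 0 symbols changed. No coordinates are given, since the build is not given in the sources used here. All value columns were matched to samples and 0 were unused.

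Both isolates were tested against the fibroblast array in limma 3.58.1 (R 4.3.3; lmFit, eBayes, 1 residual degree of freedom, Benjamini-Hochberg over all probe sets), and counts and medians were made in Python 3.11.15 (pandas 2.3.3, numpy 2.4.6). After rounding the isolates are equal in 3513 probe sets, the eBayes prior has few degrees of freedom (0.547), and the standard error of genes with equal isolates is too small. The p-values measure the spread between 2 cultures only. The fit was tested on simulated data, but the outcome is not given here. Nothing about the oxidative phosphorylation genes is concluded from that test. The number of arrays limits the precision.

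The genes and lists were chosen with earlier results of these data known. Values are given for the 4 highest and 4 lowest genes of each complex by mean difference, all genes over 1.5-fold apart in both isolates or between the isolates, tissue forms, the ATP synthase inhibitor, the subunit c genes, genes whose probe sets oppose each other, and up to 2 highest and 2 lowest of each other list. NDUFS7, NDUFAF3, COX11, UQCRC1, PDK4, SLC25A6, ATP5F1D and ATP5F1E were added after their values were seen. The alternatives were the methods' ANOVA, other eBayes priors, a variance floor, filters on dim genes, other scalings, the mean over probe sets, other fold thresholds and leaving out each isolate.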

Additional observations from a re-analysis of the deposited data

How the results depend on the processing

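Of the recomputed values, 94 were classed as the same, 34 moved and 4 counts of calls went above 0. The other 6 were medians that changed sign (3 of the assembly factors, 2 of the NDUFA4 family and 1 of complex IV). Being classed as the same allowed some change in size. For example, 16 genes over 1.5-fold higher became 11 with quantile normalisation applied again, and the complex IV median went from 0.15 to 0.0 without isolate 2. No paired analysis was possible, because the study took the GREL isolates from fetuses and the single fibroblast culture from an adult ovary. The limma count of 0 became 4 higher and 1 lower with a robust prior (NDUFB4, UQCRC2, COX6B2 and ATP5PF higher, NDUFA3 lower, all with equal isolates, where 2.38% and 2.57% of all probe sets were called) and 5 higher and 3 lower with a variance floor set by the rounding (NDUFA5, UQCRQ, ATP5F1B, NDUFAF8 and COX10 higher, COX7A1, NDUFA4L2 and COX19 lower, where 7.31% and 6.15% were called). With prior trend it stayed at 0 in both directions.

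The median over the 91 genes stayed above 0 in every alternative run, but its size moved with the centring of the arrays. Centring on the genes of like level, an alternative chosen after seeing the data, left 48 genes higher and 20 lower in both isolates, against 28.7% and 49.2% of all genes, and 3 over 1.5-fold higher. The median difference was then 0.15 over the 91 genes, against -0.15 over all genes, with 0.20 in complex I, 0.075 in complex II, 0.20 in complex III, -0.05 in complex IV, 0.25 in complex V, -0.70 in the NDUFA4 family and -0.125 in the assembly factors. Centring on the array median left 57 higher and 11 lower, against 36.6% and 36.2% of all genes, and 10 over 1.5-fold higher. Quantile normalisation applied again gave -0.025 for the assembly factors.

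With the mean over a gene's probe sets, dim ones included, the median was 0.25 for the 91 genes, 0.25 for complex III, -0.35 for the NDUFA4 family, 0.45 for mitochondrial DNA expression, 0.075 for the biogenesis regulators, 0.4125 for pyruvate dehydrogenase and the citric acid cycle and 0.067 for the carriers. Leaving out dim genes left 52 of 75 higher and 7 lower in both isolates, against 51.6% and 27.3% of all genes kept. None was over 1.5-fold lower, and the medians were 0.15 for the NDUFA4 family (1 gene) and -0.25 for the assembly factors (1 gene). At the stricter 95th percentile 23 of 33 genes were higher and 2 lower in both isolates. Among all 563 genes kept at that level, 296 were higher and 135 lower. Of the 33, 6 were over 1.5-fold higher and 0 lower, and the median was 0.175 for complex III and 0.15 for the NDUFA4 family. At a 1.3-fold threshold 29 genes (31.9%) were higher and 4 (4.4%) lower. Over all genes the shares were 23.8% and 16.5%, and over genes of like level 32.2% and 15.5%, so the upward share was near that of genes of like level. At 2-fold 1 was higher and 1 lower, against 5.8% and 4.78% of all genes.

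Leaving out an isolate gave 62 to 72 genes higher and 12 to 18 lower, against 48.8% to 51.7% and 41.0% to 43.3% of all genes. It gave 16 to 33 over 1.5-fold higher, the 33 without isolate 1, with 3 lower each time. The medians ran from 0.3 to 0.4 over the 91 genes, 0.3 to 0.5 in complex I, 0.2 to 0.3 in II, 0.4 to 0.6 in III, 0.0 to 0.3 in IV and 0.3 to 0.5 in V, and without either isolate the median of complex III was above that of complex V. They ran from 0.6 to 0.8 in the mitochondrial ribosome, 0.1 to 0.4 in carriers, 0.0 to 0.35 in assembly factors with other symbols and 0.3 to 0.5 in fission, fusion and cristae. The lower ends of these medians came without isolate 2. The cause of these shifts was not tested. Signal over background limits the assembly factors and tissue forms, 14 of the 91 genes lying below background on every array.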
